A study of Mus musculus with 8 samples.

Results

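The 136 genes described here are the variable segments of the mouse T cell receptor (TCR) alpha and delta chains with their constant genes. They were taken as every row of the count table whose symbol begins with Trav or Trdv, plus Trac and Trdc, and are 136 of 39056 rows: 128 Trav segments, 6 Trdv segments and the 2 constant genes. RNA was counted in CD4+ T cells sorted by flow cytometry. The spleen and lymph nodes were pooled, and the donors of the tissue were C57BL/6J mice given bone marrow into which a retrovirus had carried a TCRα construct. In the SAS group the construct encoded the SAS TCRα chain (4 libraries, replicates 1, 2, 3 and 6), and in the ANT group the ANT TCRα chain (4 libraries, replicates 1, 3, 4 and 5). All 8 libraries share the genotype CD4-Cre TCRβtg Tcra-/-, so both groups carry Cre under the Cd4 promoter, a TCR beta transgene and a disrupted Tcra gene, and each group stands for 1 alpha chain. The labels give no age or time after transfer, no promoter for the construct, no extent of the Tcra lesion and no floxed allele, and they do not say whether a library is 1 mouse or several. The p-values thus reflect how far these libraries spread, and some of that spread may be technical.

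The alpha and delta genes share 1 locus. The delta diversity, joining and constant genes lie between the alpha variable segments and the alpha joining and constant genes, so that a rearrangement of an alpha variable to an alpha joining segment removes the delta genes from that chromosome. An alpha variable segment contributes the first part of the chain that contacts peptide and MHC, and segments with DV in their name can also be joined to delta genes. In mouse, a long stretch of the locus was duplicated, and the copies carry the letters d and n in their symbols beside the original segments.

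Libraries held 27600959 to 31810799 counts. Of these, 1652 to 2024 fell on Trav segments in SAS libraries and 1101 to 1731 in ANT libraries, so single segments rest on few counts. Markers of CD4+ T cells were high in both clones, but not all were level. Cd4 averaged 906 counts per 1000000 (CPM) for SAS libraries and 936 for ANT libraries, and Cd3e averaged 507 and 515. Of the 7 markers on that list, 2 were higher in ANT and 0 in SAS, with a median log2 fold change (SAS minus ANT) of −0.27. Thy1 averaged 247 CPM across SAS libraries but 917 across ANT libraries, without overlap (log2 fold change −1.89, edgeR adjusted p = 3.21e-06). The other was Trbc1, given below. Summed B cell markers lay at 1.60 to 4.55 CPM in SAS and 1.27 to 3.34 CPM in ANT, and summed myeloid markers at 3.86 to 8.34 CPM in SAS and 4.30 to 6.03 CPM in ANT. The 2 CD8 genes summed to 1.99 to 4.48 CPM in SAS and 14.1 to 66.7 CPM in ANT, thymocyte markers to 62.6 to 67.8 CPM in SAS and 119 to 137 CPM in ANT, and NK cell markers, nearly all Eomes with Ncr1 at 0, to 137 to 171 CPM in SAS and 0.588 to 1.03 CPM in ANT. The thymocyte sum is nearly all Cd1d1 (63.8 CPM in SAS, 54.5 CPM in ANT) and Dntt (1.34 CPM in SAS, 74.5 CPM in ANT), with Rag1, Rag2 and Ptcra at 2 counts or fewer in all. The part of these other cells in the results below was not tested. CPM here is relative to library sizes scaled by TMM, edgeR's trimmed mean of M values.

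The segments the results turn on are shown by the last coding exon of their annotated transcript (GENCODE M21, mm10, plus strand), which encodes the variable domain up to the junction. Trav9-4 led in SAS, and Trav9n-4 is a near copy of it at which 1 count was seen in SAS and 4 in ANT. Capitals in Trav9n-4 mark the 10 of 294 bases that differ from Trav9-4, an identity of 96.6%.
Trav9-4 (chr14:53676337-53676630): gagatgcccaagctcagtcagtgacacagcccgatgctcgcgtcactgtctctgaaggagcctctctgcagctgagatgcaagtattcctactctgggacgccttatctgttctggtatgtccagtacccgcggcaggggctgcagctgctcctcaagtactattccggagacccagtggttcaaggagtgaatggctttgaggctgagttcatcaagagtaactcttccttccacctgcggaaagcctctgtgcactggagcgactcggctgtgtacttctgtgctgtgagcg
Trav9n-4 (chr14:53294737-53295030): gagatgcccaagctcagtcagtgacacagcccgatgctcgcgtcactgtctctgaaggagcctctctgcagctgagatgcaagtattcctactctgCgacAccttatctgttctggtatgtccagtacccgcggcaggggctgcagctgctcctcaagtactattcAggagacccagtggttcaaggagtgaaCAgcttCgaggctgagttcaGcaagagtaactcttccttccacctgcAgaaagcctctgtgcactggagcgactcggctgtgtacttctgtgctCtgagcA
Trav14-1 and Trav14d-3-dv8 were among the leading segments in ANT. Trav14d-1, at which no read was counted in any library, differs from Trav14-1 at the 13 bases in capitals, an identity of 95.7% over the 300 bases shown. These 3 exons are shown from their 3′ end back over 300 bases, and the exon of Trav14d-3-dv8, at 309 bases against 312, was not compared base by base.
Trav14-1 (chr14:53554259-53554558): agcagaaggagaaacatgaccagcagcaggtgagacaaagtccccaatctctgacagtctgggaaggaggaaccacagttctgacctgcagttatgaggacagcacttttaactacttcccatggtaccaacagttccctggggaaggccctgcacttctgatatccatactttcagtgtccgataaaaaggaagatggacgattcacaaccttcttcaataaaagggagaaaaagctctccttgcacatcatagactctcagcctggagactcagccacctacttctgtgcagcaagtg
Trav14d-1 (chr14:52855867-52856166): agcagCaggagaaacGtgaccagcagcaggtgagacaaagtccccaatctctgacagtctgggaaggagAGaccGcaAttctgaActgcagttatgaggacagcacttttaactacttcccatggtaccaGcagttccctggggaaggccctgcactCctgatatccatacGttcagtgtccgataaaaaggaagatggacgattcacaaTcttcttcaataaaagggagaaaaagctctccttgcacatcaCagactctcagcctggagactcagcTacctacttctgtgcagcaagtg
Trav14d-3-dv8 (chr14:53078746-53079045): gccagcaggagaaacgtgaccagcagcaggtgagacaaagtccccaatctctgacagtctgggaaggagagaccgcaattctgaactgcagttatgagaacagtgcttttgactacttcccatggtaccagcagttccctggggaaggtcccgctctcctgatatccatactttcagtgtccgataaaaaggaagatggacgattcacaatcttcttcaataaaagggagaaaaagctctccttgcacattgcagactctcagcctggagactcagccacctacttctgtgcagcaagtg

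How far such copies can be told apart by a read was described by cutting each annotated transcript into all windows of 50 bases and asking which windows occur in another of the 136 genes. Of 128 Trav segments, 47 shared over 90% of their windows. Reads were counted at only 8 of these 47, and 1 of them, Trav14d-2, reached 10 counts over the 8 libraries. Of the 48 Trav segments with no count in any library, 39 shared over 90% of their windows. The median share was 32.6% for original segments, 99.7% for d copies and 99.8% for n copies. A count of 0 at a duplicated segment therefore does not separate an absent transcript from reads that match several places, and how the authors treated such reads is not given in the sources used here. The leading segments differed in this respect: 4.86% of windows were shared for Trav14-1, 6.65% for Trav15-1-dv6-1, 38.8% for Trav14d-3-dv8 and 55.8% for Trav9-4, and none for Trav17 and Trav21-dv12. With windows of 100 bases the shared part was 0% for Trav14-1, 1.96% for Trav14d-3-dv8 and 14.9% for Trav9-4.

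**Figure D1:**
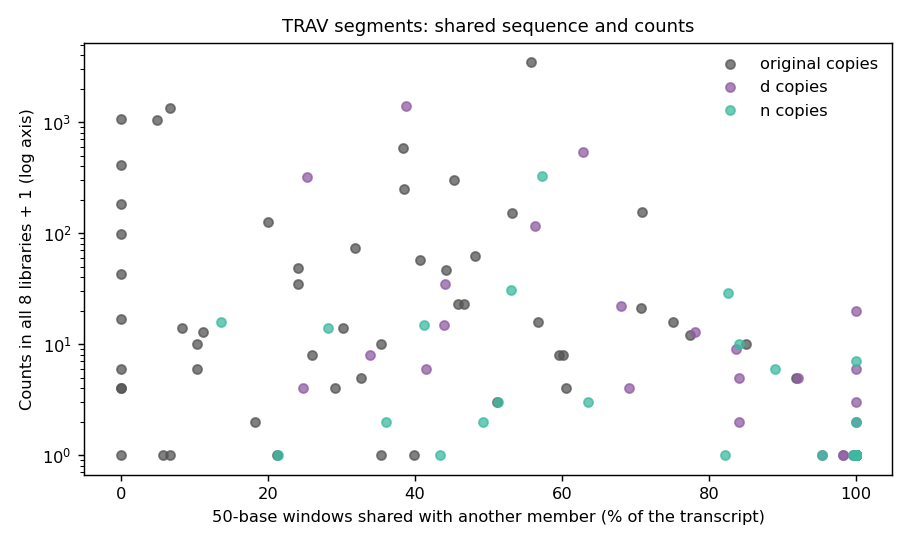
Each point is 1 of the 128 Trav segments, with the percent of its 50-base windows that occur in another of the 136 genes on the x axis and its counts over all 8 libraries plus 1 on a log y axis, coloured by original, d or n copy. Of the 48 segments with no count, 39 lie above 90% on the x axis, while Trav9-4 (55.8%) and Trav14d-3-dv8 (38.8%) have high counts with a mixed sequence.

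Trac, the alpha constant gene, was counted in every library although all are labelled Tcra-/-, with 6426, 5618, 5842 and 6688 counts in SAS replicates 1, 2, 3 and 6 and 9418, 8335, 9598 and 8606 counts in ANT replicates 1, 3, 4 and 5. Gene counts do not separate reads of the construct from reads of the locus. Scaled, Trac stood at 196, 197, 201 and 215 CPM in SAS, against 325, 306, 346 and 296 CPM in ANT. Every SAS library lay below every ANT library. The log2 fold change, SAS minus ANT, was −0.65 (SE 0.09, edgeR quasi-likelihood adjusted p = 0.000293 over all genes tested). In bulk RNA, fewer cells of a type and less RNA per cell cannot be told apart.

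Trdc, the delta constant gene, was abundant in both clones. It stood at 435, 354, 406 and 390 CPM in SAS replicates 1, 2, 3 and 6, against 549, 417, 444 and 414 CPM in ANT replicates 1, 3, 4 and 5. The clones overlapped and the difference stayed short of the threshold (log2 fold change −0.20, SE 0.12, edgeR adjusted p = 0.212). Per kb of exon, Trdc reached 47.5% ± 4.80 of the level of Trac in SAS libraries and 34.7% ± 4.31 in ANT libraries (SD, n = 4 each), with no overlap between the clones (43.5 to 53.8% in SAS, 31.1 to 40.9% in ANT). Trdc itself averaged 102 ± 8.68 CPM per kb of exon (RPKM) in SAS and 118 ± 16.4 RPKM in ANT, and Trac 216 ± 9.35 RPKM in SAS and 340 ± 23.2 RPKM in ANT.

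Other markers of gamma delta T cells were counted at low levels. The TCR gamma constant genes together had 68, 95, 37 and 36 counts in SAS replicates 1, 2, 3 and 6, and 20, 8, 10 and 5 counts in ANT replicates 1, 3, 4 and 5. Every SAS library lay above every ANT library. Trdc itself had 10110 to 14283 counts in SAS and 11369 to 15936 in ANT, and the part of gamma delta T cells in its level was not tested. Among the gamma delta T cell markers, Tcrg-C2 and Tcrg-C4 were higher in SAS with log2 fold changes of 3.70 and 4.996 (edgeR adjusted p = 0.00322 and 0.000509), as was Sox13, a transcription factor of gamma delta T cells, at 2.85 (edgeR adjusted p = 0.00596). With Trdc, 8 markers on that list were in the table, 5 were tested, 3 were higher in SAS and none was higher in ANT, beside 19.8% and 17.7% of all 12619 genes tested. Tcrg-C2, Tcrg-C4 and Sox13 had 117, 84 and 79 counts over the SAS libraries and 8, 2 and 10 over the ANT libraries. They passed the filter on low counts through SAS only, so the tally depends in part on that filter. Of the other markers, 5830411N06Rik was tested and not called (log2 fold change −0.94, edgeR adjusted p = 0.184), and Tcrg-C1, which was not tested, was at 0.294 CPM in SAS against 0.292 CPM in ANT. The delta joining and diversity genes, of which 4 were counted, summed to 12.96 ± 1.70 CPM in SAS against 11.99 ± 1.78 CPM in ANT.

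**Figure D2:**
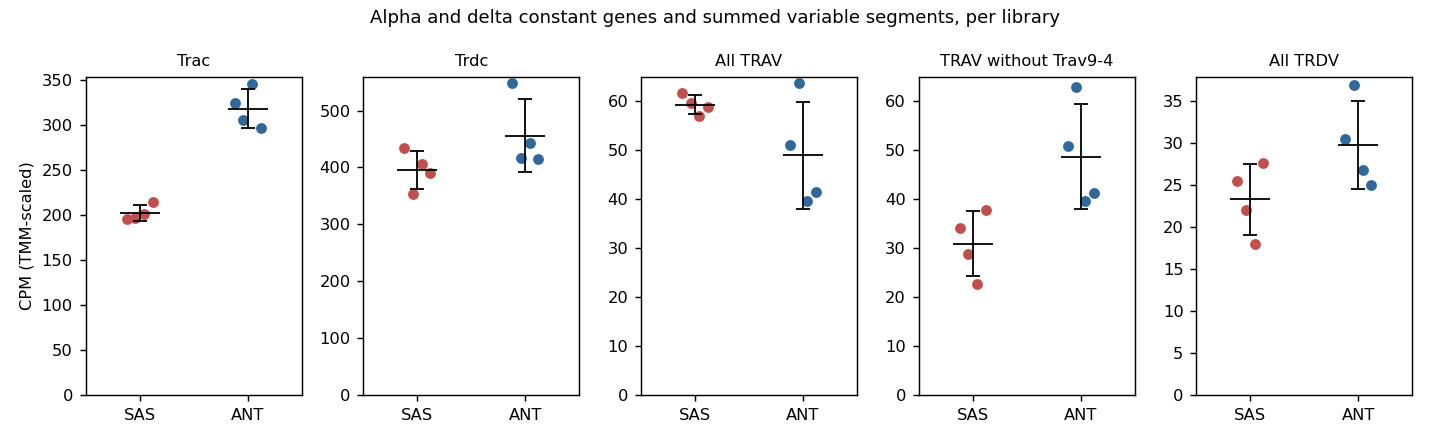
Each panel gives the TMM-scaled CPM of a constant gene or of a sum of segments in every library, with SAS left of ANT, points for libraries, a bar at the mean of 4 and whiskers of 1 SD. Trac separates the clones, Trdc and the sum of Trdv segments overlap, and the sum of Trav segments overlaps until Trav9-4 is left out.

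The Trav segments as a whole stood at 61.6, 59.6, 57.0 and 58.7 CPM in SAS replicates 1, 2, 3 and 6, against 51.0, 63.6, 39.7 and 41.4 CPM in ANT replicates 1, 3, 4 and 5. The sums overlapped. Without Trav9-4 they were 34.1, 28.8, 22.6 and 37.8 CPM in SAS, against 50.8, 62.9, 39.5 and 41.2 CPM in ANT, and no longer overlapped. These residual Trav counts came to 15.2 ± 3.01 per 100 Trac counts in SAS and 15.4 ± 3.85 per 100 in ANT (SD, n = 4 each). The range was 11.2 to 17.6 in SAS and 11.4 to 20.5 in ANT. With Trav9-4 included the ratio was 29.4 ± 1.89 in SAS and 15.5 ± 3.93 in ANT, without overlap. Sums and ratios over the segments are given without a test, because the segments were chosen with earlier results of these data known.

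Trav9-4 (ENSMUSG00000096678.3, chromosome 14, 53676141 to 53676630) was the leading segment in every SAS library. It stood at 27.4, 30.8, 34.3 and 20.9 CPM in SAS replicates 1, 2, 3 and 6, against 0.207, 0.698, 0.108 and 0.172 CPM in ANT replicates 1, 3, 4 and 5. The lowest SAS library was above the highest ANT library. These levels rest on 902, 880, 996 and 650 counts in SAS and on 6, 19, 3 and 5 counts in ANT. The log2 fold change was 6.58 (SE 0.40, edgeR adjusted p = 1.44e-06). As a share of Trav counts it ran from 35.5% (95% Wilson interval 33.4 to 37.8) in SAS replicate 6 to 60.3% (57.9 to 62.6) in SAS replicate 3, and from 0.272% (0.0927 to 0.798) in ANT replicate 4 to 1.10% (0.704 to 1.71) in ANT replicate 3. The intervals cover counting error only, and those of SAS replicates 3 and 6 do not meet. The exact two-sided permutation test of the share gave p = 0.0286, the smallest that 4 libraries against 4 allow. Trav9-4 was singled out by its SAS share in these same libraries, so neither this p nor the edgeR call is independent support. It also passed the filter on low counts through its SAS libraries only.

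The segments on either side of Trav9-4 did not pass the test. Trav3-3, which ends 9.63 kb upstream of it, was at 0.782 ± 0.395 CPM in SAS against 1.36 ± 0.738 CPM in ANT (log2 fold change −0.79, edgeR adjusted p = 0.219). Trav4-4-dv10, which starts 7.02 kb downstream, was at 0.596 ± 0.339 CPM in SAS against 0.694 ± 0.302 CPM in ANT (log2 fold change −0.21, edgeR adjusted p = 0.778).

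In ANT no single segment led in the same way, and 3 segments held similar shares. Trav14-1 (ENSMUSG00000076840.4, chromosome 14, 53554022 to 53554558) stood at 2.37, 1.05, 1.52 and 1.86 CPM in SAS replicates 1, 2, 3 and 6, against 8.65, 8.59, 5.62 and 6.82 CPM in ANT replicates 1, 3, 4 and 5. The clones did not overlap, and the log2 fold change was −2.12 (SE 0.26, edgeR adjusted p = 0.000143). Because Trav9-4 takes about as many Trav counts in SAS as all other segments together, shares are also given over the counts left when Trav9-4 is set aside. Of those, Trav14-1 held 5.56% ± 1.56 in SAS and 15.4% ± 1.68 in ANT (exact two-sided permutation p = 0.0286, n = 4 each).

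Trav13-1, which ends 8.50 kb upstream of Trav14-1, was also lower in SAS. It stood at 0.487, 0.105, 0.379 and 0.578 CPM in SAS replicates 1, 2, 3 and 6, against 2.41, 3.23, 1.66 and 1.65 CPM in ANT replicates 1, 3, 4 and 5. These levels rest on 16, 3, 11 and 18 counts in SAS and on 70, 88, 46 and 48 in ANT. SAS replicate 2 lay below the filter on low counts, so Trav13-1 met it in full only in ANT, the clone where it is higher. The clones did not overlap (log2 fold change −2.51, SE 0.44, edgeR adjusted p = 0.0013), and among counts other than Trav9-4 it held 1.25% ± 0.598 in SAS and 4.52% ± 0.518 in ANT (exact two-sided permutation p = 0.0286, n = 4 each). The next segment on the other side, Trav15-1-dv6-1, begins 5.07 kb downstream of Trav14-1. It stood at 5.69, 4.13, 3.28 and 4.91 CPM in SAS and at 7.62, 7.56, 6.37 and 6.61 CPM in ANT, a log2 fold change of −0.64 (SE 0.19, edgeR adjusted p = 0.0222). Its share of counts other than Trav9-4 was 14.6% ± 1.53 in SAS and 14.8% ± 1.92 in ANT, a difference within the spread (exact two-sided permutation p = 0.886, n = 4 each). The call of Trav15-1-dv6-1 was lost without ANT replicate 1, ANT replicate 3 or SAS replicate 3, with an adjusted p of up to 0.0563.

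Trav14d-3-dv8, a d copy 1141 kb from Trac, was at 5.17, 3.398, 3.41 and 5.30 CPM in SAS replicates 1, 2, 3 and 6, against 9.44, 9.33, 6.27 and 5.20 CPM in ANT replicates 1, 3, 4 and 5. SAS replicate 6 reached above ANT replicate 5. It passed the test (log2 fold change −0.80, SE 0.25, edgeR adjusted p = 0.0273), but not without ANT replicate 1 or 3 or SAS replicate 2 or 3 (adjusted p up to 0.0778). Of counts other than Trav9-4 it held 14.0% ± 1.57 in SAS and 15.5% ± 2.48 in ANT (exact two-sided permutation p = 0.371, n = 4 each).

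Another 7 of the 12 segments with the largest mean shares did not pass the test between the clones. Trav21-dv12, the Trav segment next to Trdv1, was at 4.44, 2.87, 2.79 and 6.29 CPM in SAS and at 4.10, 6.54, 4.50 and 4.65 CPM in ANT (log2 fold change −0.27, edgeR adjusted p = 0.494). Trav15-2-dv6-2 averaged 2.81 ± 0.786 CPM in SAS against 2.16 ± 0.480 CPM in ANT, and Trav16d-dv11 2.46 ± 0.647 CPM in SAS against 2.07 ± 0.426 CPM in ANT. Trav17 averaged 1.48 ± 0.437 CPM in SAS against 2.02 ± 0.712 CPM in ANT. Trav16n was at 1.38 ± 0.153 CPM in SAS against 1.41 ± 0.235 CPM in ANT, and Trav8d-2 at 1.61 ± 0.484 CPM in SAS against 1.08 ± 0.231 CPM in ANT. Their log2 fold changes lay between −0.44 for Trav17 and 0.58 for Trav8d-2, and Trav3-3 is given above.

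As shares of counts other than Trav9-4, 6 of these 7 segments had the higher mean in SAS, and for 4 of them the clones did not overlap. Trav8d-2 held 5.17% ± 0.710 in SAS and 2.23% ± 0.0769 in ANT, Trav15-2-dv6-2 9.12% ± 2.01 in SAS and 4.45% ± 0.563 in ANT, and Trav16d-dv11 8.09% ± 1.98 in SAS and 4.28% ± 0.461 in ANT. Trav16n held 4.64% ± 1.28 in SAS and 2.96% ± 0.498 in ANT. Each of these 4 differences reached the smallest p the design allows (exact two-sided permutation p = 0.0286 each, n = 4 each, unadjusted over the 11 segments compared). The shares are fractions of 1 total, so the 4 differences are not independent of each other. Lower SAS shares of Trav14-1 and Trav13-1 leave more for other segments. How much of the 4 differences this makes up was not tested. The shares of Trav15-1-dv6-1 and Trav14d-3-dv8, given above, were not higher in SAS. In CPM none of Trav8d-2, Trav15-2-dv6-2, Trav16d-dv11 and Trav16n passed the test. For Trav16n, Trav16d-dv11, Trav17 and Trav21-dv12 the direction of the share turns round when Trav9-4 is counted in.

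**Figure D3:**
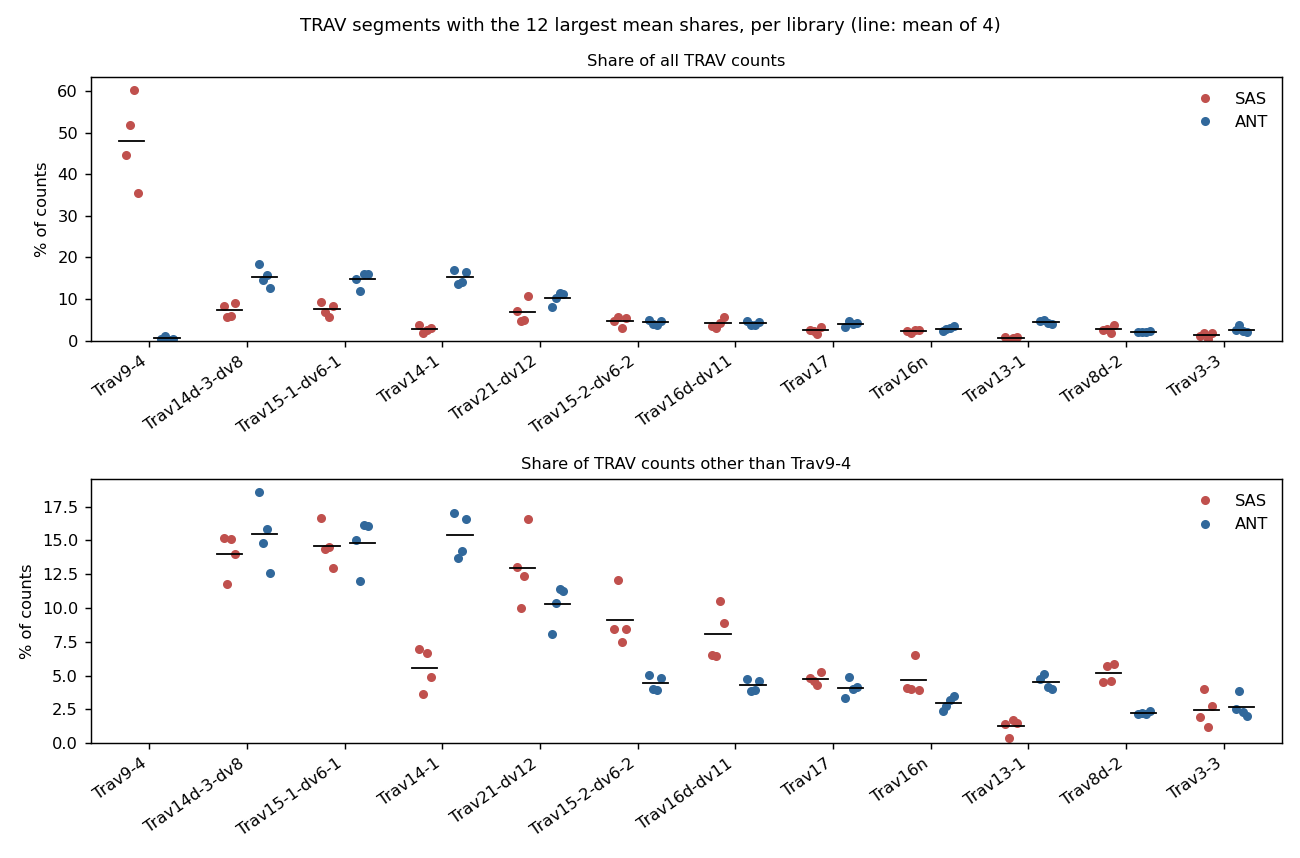
Shares of Trav counts, in percent, for the 12 segments with the largest mean share, with SAS left of ANT, a point for each library and a line at the mean of 4; the upper panel counts all Trav segments and the lower panel leaves Trav9-4 out. Trav9-4 lies between 35.5% and 60.3% in SAS and at 1.10% or less in ANT, and in the lower panel Trav14-1 and Trav13-1 are lower in SAS in every library.

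In the fit over all genes, 24 of the 136 genes passed the filter on low counts. Of these 24, 1 had its higher level in SAS and 9 in ANT at an adjusted p under 0.05, or 41.7%, beside 37.4% of all 12619 genes tested. Over all genes, 19.8% were called with the higher level in SAS and 17.7% in ANT. The libraries of the clones did not overlap for 7 of the 24, beside 38.1% of all genes. The share of called members is thus near that of all genes, and nothing particular to the locus can be read from the count. The median log2 fold change was −0.35 over the 24 and −0.00 over all genes. Beyond the genes above and the delta segments below, the called segments were Trav19 (log2 fold change −1.12, SE 0.37, edgeR adjusted p = 0.0355) and Trav13-4-dv7 (−1.12, SE 0.34, edgeR adjusted p = 0.0253), and Trav23, named after its values were seen (−0.85, SE 0.25, edgeR adjusted p = 0.0209). Trav19 was at 0.265 ± 0.0460 CPM in SAS against 0.580 ± 0.256 CPM in ANT. With 7 to 9 counts a library in SAS and 11 to 26 in ANT, Trav19 passed the filter through ANT only, the clone where it is higher. Trav13-4-dv7, with 8 counts in SAS replicate 2, also met the filter in full only in ANT. Trav23, the Trav segment nearest to Trac at 243 kb, was at 0.561 ± 0.0436 CPM in SAS against 1.02 ± 0.159 CPM in ANT. These 3 calls rest on few counts: under 15 alternatives Trav19 stayed called in 6, Trav13-4-dv7 in 7 and Trav23 in 9, whereas Trav9-4, Trav14-1, Trav13-1 and Trac stayed called in all 15.

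**Figure D4:**
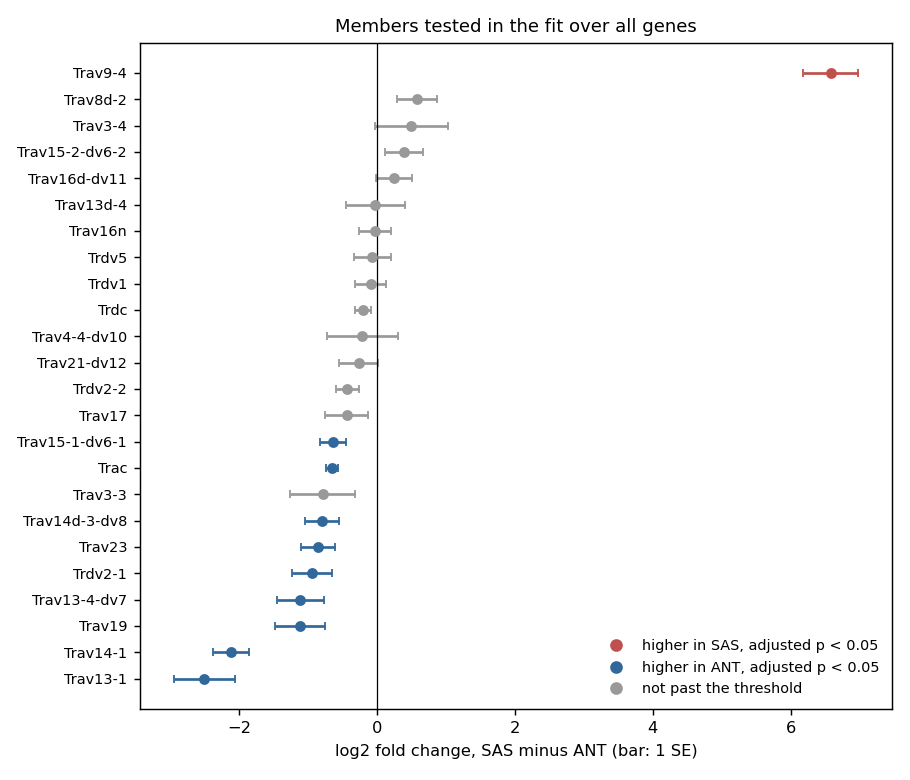
Log2 fold change, SAS minus ANT, of the 24 genes that passed the filter on low counts, with whiskers of 1 SE and colours for the edgeR call at an adjusted p under 0.05. Trav9-4 stands alone on the SAS side at 6.58, and the 9 genes higher in ANT lie between −2.51 and −0.64.

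The segments that can also join delta genes held much of the Trav counts. There are 10 such Trav/DV segments among the 128, and 9 of them had a count. Over all libraries together they took 41.1% of Trav counts. Among counts other than Trav9-4 they held 63.6, 58.6, 62.2 and 64.0% in SAS replicates 1, 2, 3 and 6, and 54.4, 49.1, 54.8 and 52.3% in ANT replicates 1, 3, 4 and 5. Every SAS library lay above every ANT library on that measure. With Trav9-4 counted in, the order was the reverse, at 32.4% ± 7.35 in SAS and 52.4% ± 2.79 in ANT.

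Along the locus, Trav counts were concentrated toward Trac. The 128 segments were split by their order into 3 stretches, with 43 segments in the distal stretch (1792 to 1178 kb from Trac), 43 in the middle stretch (1173 to 766 kb) and 42 in the proximal stretch (759 to 243 kb). A count was seen at 23 distal, 22 middle and 35 proximal segments. The proximal stretch held 81.4, 82.8, 83.8 and 76.7% of Trav counts in SAS replicates 1, 2, 3 and 6, and 67.4, 69.2, 70.4 and 71.6% in ANT replicates 1, 3, 4 and 5. Trav9-4 itself lies in the proximal stretch, 544 kb from Trac. Without it the proximal stretch held 63.5% ± 3.03 in SAS and 69.5% ± 1.82 in ANT, the middle stretch 29.4% ± 4.40 in SAS and 26.1% ± 1.95 in ANT, and the distal stretch 7.07% ± 2.54 in SAS and 4.40% ± 0.778 in ANT, the last without overlap. The proximal share without Trav9-4 was lower in every SAS library (59.3 to 66.5%) than in every ANT library (67.3 to 71.5%). Of the same counts, the distal segment Trav8d-2 alone held 5.17% in SAS and 2.23% in ANT. In the proximal stretch, Trav14-1 and Trav13-1 held 5.56% and 1.25% in SAS, against 15.4% and 4.52% in ANT. The differences in these stretches thus rest on few segments, and the remaining segments were not compared. The count-weighted mean distance to Trac, again without Trav9-4, was 744 ± 15.4 kb in SAS and 728 ± 17.7 kb in ANT and overlapped.

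The middle and distal stretches hold all of the d and n copies, and the proximal stretch holds original segments only. Shares by copy and by stretch are therefore not separate results. The median part of windows shared was 98.2% in the distal stretch, 89.0% in the middle stretch and 38.4% in the proximal stretch. The part of this in the counts by position was not tested. Within these stretches the counts sat in few places. Trav8d-2, Trav16d-dv11 and Trav14d-3-dv8 lie within 1178 to 1141 kb of Trac, and Trav16n at 869 kb. Trav8d-2 alone had 197 counts in SAS and 122 in ANT, where the whole distal stretch had 509 over both clones. Original segments held 81.8% ± 3.35 of Trav counts in SAS and 70.6% ± 1.60 in ANT, d copies 15.4% ± 3.27 in SAS and 24.8% ± 2.18 in ANT, and n copies 2.78% ± 0.494 in SAS and 4.66% ± 0.686 in ANT. Without Trav9-4 the d copies held 29.7% ± 1.79 in SAS and 24.9% ± 2.19 in ANT, in the opposite order.

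**Figure D5:**
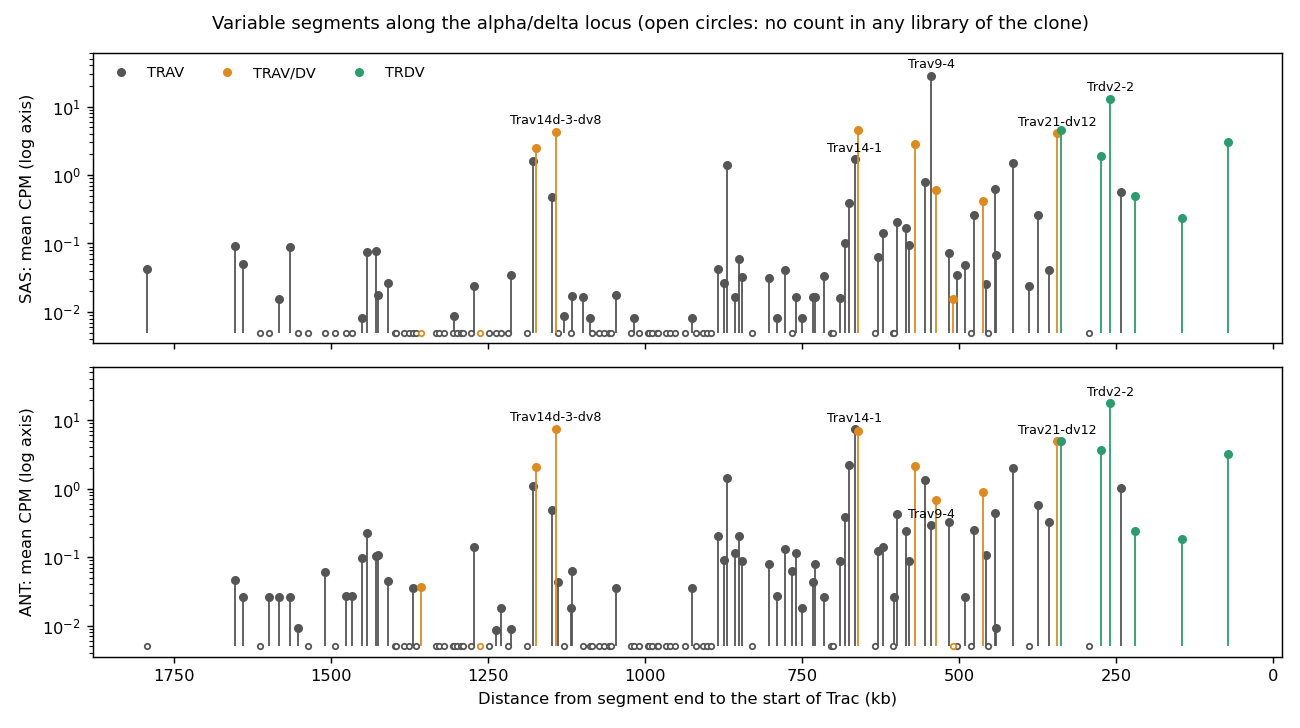
Mean CPM of each variable segment (log y axis, SAS above ANT, means of 4 libraries) against its distance in kb from the start of Trac, for Trav, Trav/DV and Trdv segments; open circles on the lower edge mark segments with no count in the clone. Trav9-4 rises above all others in SAS at 544 kb, and both clones share peaks near 1141 kb, at 660 to 666 kb and from 344 to 259 kb.

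The number of different Trav segments was smaller in SAS. A count was seen at 45, 46, 41 and 49 segments in SAS replicates 1, 2, 3 and 6, and at 59, 63, 54 and 55 segments in ANT replicates 1, 3, 4 and 5. When every library was reduced in expectation to 1101 Trav counts, the numbers were 39.4 ± 2.75 in SAS and 55.2 ± 1.45 in ANT. With Trav9-4 left out and each library reduced to the lowest remaining total, they were 40.0 ± 2.32 in SAS and 47.3 ± 1.56 in ANT, still without overlap. The inverse Simpson number, the number of equally used segments that would give the same concentration, was 4.16 ± 1.47 in SAS and 10.99 ± 1.35 in ANT, and without Trav9-4 it was 11.4 ± 1.06 in SAS and 10.9 ± 1.27 in ANT, which overlapped. Pseudogene segments held 0.317% ± 0.0750 of Trav counts in SAS and 1.15% ± 0.244 in ANT, without overlap. With Trav9-4 left out they held 0.635% ± 0.224 in SAS and 1.16% ± 0.248 in ANT, and the clones overlapped. One of them, Trav20, named after its values were seen, had 5 counts over the SAS libraries, 37 over the ANT libraries, and was below the filter on low counts.

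Trav segments of invariant T cells were at or near 0. Trav11 and Trav11d, whose chain natural killer T cells use in mouse, had 0 counts in all 8 libraries, which allows a share of up to 0.148 to 0.182% of Trav counts in SAS libraries and up to 0.173 to 0.272% in ANT libraries. All 50-base windows of both occur in another of the 136 genes, so reads of them may not have been counted. Trav1, the segment of mucosal-associated invariant T cells, was counted 5 times in SAS, 4 of them in replicate 2, and 0 times in ANT. Zbtb16, the transcription factor of such cells, had 25 counts in SAS, 22 of them in replicate 2, and 3 in ANT. Klrb1c, on the marker lists of both these cells and NK cells, had 96 counts in SAS and 4 in ANT. It was higher in SAS (log2 fold change 4.33, edgeR adjusted p = 0.000385) but passed the filter on low counts through SAS only.

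The delta variable segments were led by Trdv2-2, with 14.5, 12.3, 10.03 and 15.3 CPM in SAS replicates 1, 2, 3 and 6, against 17.8, 21.4, 16.7 and 14.6 CPM in ANT replicates 1, 3, 4 and 5. The clones overlapped and the difference stayed short of the threshold (log2 fold change −0.43, SE 0.17, edgeR adjusted p = 0.0669), though 3 of 15 alternatives called it, among them DESeq2 and the fit without ANT replicate 5. Trdv2-2 held 56.0% ± 0.649 of Trdv counts in SAS and 59.3% ± 1.98 in ANT. Trdv2-1 shares 61.5% of its windows, all of them with Trdv2-2. It was at 2.28, 1.33, 1.83 and 2.12 CPM in SAS and at 4.13, 5.10, 3.13 and 2.24 CPM in ANT, a log2 fold change of −0.95 (SE 0.29, edgeR adjusted p = 0.0263). It did not pass without ANT replicate 1 or 3 or SAS replicate 2 or 3, with an adjusted p of up to 0.0809, and SAS replicate 1 lay above ANT replicate 5.

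Trdv1, which begins 4.86 kb downstream of Trav21-dv12, was at 4.72, 3.92, 3.62 and 6.13 CPM in SAS and at 3.89, 6.24, 4.47 and 5.06 CPM in ANT (log2 fold change −0.10, edgeR adjusted p = 0.766). Trdv5 lies on the minus strand downstream of Trdc and overlaps its end by 0.207 kb, so its counts are uncertain unless strand was used in counting. It was at 3.13, 3.50, 2.14 and 3.31 CPM in SAS and at 4.10, 3.86, 2.05 and 2.69 CPM in ANT (log2 fold change −0.07, edgeR adjusted p = 0.857). Trdv4, the delta segment of dendritic epidermal T cells in mouse, was at 0.234 ± 0.160 CPM in SAS against 0.185 ± 0.0475 CPM in ANT, and the pseudogene Trdv3 at 0.495 ± 0.333 CPM in SAS against 0.238 ± 0.0724 CPM in ANT. Both were below the filter on low counts. Summed, Trdv segments stood at 25.5, 22.1, 17.96 and 27.6 CPM in SAS and at 30.5, 36.9, 26.8 and 25.0 CPM in ANT, which overlapped. Per 100 Trav counts other than Trav9-4 they came to 75.9 ± 2.77 in SAS and 61.8 ± 4.06 in ANT, without overlap.

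Other genes of the receptor and of its rearrangement were taken from lists written from general knowledge. Their counts stand beside 19.8% of all genes called higher in SAS and 17.7% called higher in ANT, and such small lists are described only. The median log2 fold change was −0.19 over the TCR complex, −0.10 over V(D)J recombination, 0.07 over the enhancer factors and 0.18 over the neighbours of the locus, beside −0.00 over all genes. Of 7 tested genes of the TCR complex, 0 were higher in SAS and 1, the beta constant gene Trbc1, was higher in ANT (log2 fold change −0.32, edgeR adjusted p = 0.045). The rest did not pass the test. Cd3d, Cd3e, Cd3g and Cd247, chains that assemble with the alpha and beta chains, had log2 fold changes of −0.27, −0.02, −0.30 and −0.19. Those of Trbc2 and Cd4 were −0.10 and −0.05. Of 12 tested genes of V(D)J recombination, 2 were higher in SAS and 4 in ANT. The recombinase genes Rag1 and Rag2 were nearly absent, with 2 counts of Rag1 in SAS, 0 in ANT and no count of Rag2. Dntt, the template-independent polymerase of junctions, was higher in ANT (1.34 CPM in SAS, 74.5 CPM in ANT, log2 fold change −5.80), as were Xrcc4, Paxx and Atm (−0.69, −0.45 and −0.53), of DNA end joining and break signalling. The nuclease gene Dclre1c (0.68) and Xrcc6 (0.45), of end joining, were higher in SAS.

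Of 12 genes for factors binding the alpha enhancer, 2 were higher in SAS and 0 in ANT, beside 19.8% and 17.7% of all genes. The 2 were Tcf3 and Ikzf1. Tcf3, which encodes E proteins, was at 193 CPM in SAS against 97.9 CPM in ANT (log2 fold change 0.98, edgeR adjusted p = 0.000886). Ikzf1 had a log2 fold change of 0.35 (edgeR adjusted p = 0.0333). Lef1, Ets1, Runx1 and Gata3 had log2 fold changes of −0.01, −0.04, −0.15 and 0.05 and did not pass the test. Of 9 tested neighbours of the locus, 3 were higher in SAS and 0 in ANT, beside the same shares of all genes. The 3 were Abhd4, Sall2 and Slc7a7, with log2 fold changes of 2.47, 2.08 and 3.08. Slc7a7 had 11, 3, 6 and 10 counts in ANT replicates 1, 3, 4 and 5. It met the filter on low counts in full only in SAS, so the tally depends in part on that filter. Dad1, the gene just beyond Trac, was at 67.8 CPM in SAS against 67.4 CPM in ANT (log2 fold change 0.01, edgeR adjusted p = 0.967). The 60 alpha joining segments summed to 107 ± 28.8 CPM in SAS against 111 ± 13.2 CPM in ANT, and the 35 beta variable segments to 2790 ± 698 CPM in SAS against 2816 ± 590 CPM in ANT.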

How the data were processed

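The values are whole-number read counts that the authors deposited in 1 table of 39056 Ensembl IDs by 8 libraries. The submitters' processing notes name STAR, featureCounts and the build mm10; versions, annotation release, strand setting and the treatment of multi-mapped reads are not given in the sources used here. Libraries were strand-specific TruSeq mRNA libraries, per the labels' protocols. IDs were matched without version to GENCODE M21 (38872 matched, 184 did not), whose coordinates and transcripts are of the same build.

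All genes passing edgeR's default filter (12619) entered the test of edgeR 4.0.16 under R 4.3.3 (TMM scaling, robust quasi-likelihood, no covariates, all 8 libraries), with Benjamini-Hochberg adjustment over all of them and a threshold of 0.05. Log2 fold changes are SAS minus ANT, and each SE is their size over the root of the F statistic. Shares are percentages of the Trav counts of a library. Single shares were compared with exact two-sided permutation tests (scipy 1.17.1), which cannot go below 0.0286, and no p was adjusted over the members alone, in place of the adjustment first planned. The edgeR step was tested on simulated counts. It recovered 16% of 1.5-fold, 58% of 2-fold and 98% of 4-fold changes, with 4.26% of calls false. The changed genes were drawn at random from all genes tested, so these rates may not hold for segments of few counts. A segment that did not pass may therefore still differ by 2-fold or more.

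The members and gene lists were chosen with earlier results of these data known. The genes named are Trac, Trdc, the Trdv segments and the 12 Trav segments with the largest mean share over the 8 libraries, with the 2 largest changes among other called members; Trav23 and Trav20 were named after their values were seen. The alternatives were DESeq2 1.42.0, limma-voom (limma 3.58.1), other scalings, no low-count filter, a replicate block and leaving out each library in turn. Same-numbered replicates exist for numbers 1 and 3 only.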

Additional observations from a re-analysis of the deposited data

Results flagged for a closer look

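ANT replicate 3 stood far from the other ANT libraries for 2 segments. Trav9-4 was at 0.698 CPM in that library, on 19 counts, against 0.108 to 0.207 CPM in the other ANT libraries, and Trav17 was at 3.08 CPM against 1.58 to 1.72 CPM. A gap of this size relative to the range is seen by chance in about 1 in 20 groups of 4, and 106 groups were examined. The same library had the largest Trav sum of the ANT clone, at 63.6 CPM.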

How the results depend on the processing

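Setting Trav9-4 aside changed most summed measures. The SAS minus ANT difference then became −17.7 CPM for the Trav sum (10.3 with it), −0.142 Trav counts per 100 Trac counts (13.9), 0.571 for the inverse Simpson number (−6.83), −0.844 percentage points for the leading segment (31.6), 9.47 for Trav/DV segments (−20.0), −5.97 for the proximal stretch (11.5), 3.30 for the middle stretch (−10.8), −5.65, 4.77 and 0.881 for original, d and n copies (11.3, −9.37 and −1.88) and 16.1 kb for the mean distance (−80.3). The shares of Trav21-dv12, Trav16d-dv11, Trav17 and Trav16n turned to 2.70, 3.81, 0.635 and 1.69 points. This follows from the shares being fractions of 1 total. With families in place of segments, the difference for the family of Trav15-2-dv6-2 was −7.18 points. Leaving out pseudogene segments, dividing by exon length and dropping segments under 10 counts turned no direction among these measures.

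Leaving out 1 library at a time gave 3964 to 4700 genes called of all genes and 5 to 11 called members (10 with all libraries), with 5 without ANT replicate 1, ANT replicate 3 or SAS replicate 3. Directions of uncalled members turned at times. With library size as the only scaling the log2 fold change was 0.07 for Trav13d-4, 0.06 for Trav16n, 0.00 for Trdv1 and 0.03 for Trdv5. Leaving out 1 library gave −0.24 to 0.36 for Trav13d-4, −0.10 to 0.07 for Trav16n, −0.44 to 0.13 for Trav4-4-dv10, −0.27 to 0.04 for Trdv1 and −0.25 to 0.07 for Trdv5, and for shares −0.0553 to 0.895 points for Trav15-2-dv6-2 and −0.625 to 0.250 for Trav16d-dv11. The replicate block, which uses the numbers 1 and 3 that occur in both clones, gave 5798 called genes and 10 called members, but not the same ones: Trav3-3 (log2 fold change −1.91, adjusted p = 0.000291) and Trdv2-2 (−0.69, adjusted p = 0.00151) were gained, and Trav13-4-dv7 (adjusted p = 0.0728) and Trav23 (adjusted p = 0.234) were lost. It turned the direction of uncalled members, with −0.07 for Trav16d-dv11, −0.18 for Trav15-2-dv6-2 and −0.48 for Trav3-4. The samples share only a number: deviations of same-numbered libraries correlated at 0.293 for number 1 and −0.121 for number 3. DESeq2 called 13 members and limma-voom 9. With 1101 to 2024 Trav counts a library, segments of a few counts cannot be compared.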
